A study of Mus musculus with 6 samples.

Results

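Core-binding factor is a heterodimeric transcription factor in which a RUNX protein contacts DNA through its Runt domain and Cbfb, which does not bind DNA itself, raises the affinity and stability of the RUNX protein. In blood it is required for the emergence of stem cells and for myeloid, megakaryocytic and lymphoid differentiation, and it can activate or repress a gene according to the cofactors it meets. The ETO family (Runx1t1, Cbfa2t2 and Cbfa2t3) are nuclear corepressors that bring NCoR and histone deacetylases to DNA-bound factors. RUNX1 is fused to RUNX1T1, and CBFB to MYH11, the gene of smooth muscle myosin heavy chain, in the human core-binding factor leukemias.

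The 8 genes described here are Runx1, Runx2, Runx3, Cbfb, Runx1t1, Cbfa2t2, Cbfa2t3 and Myh11, chosen by symbol. The platform annotation used here gives a probe set to 7 of them alone, out of 22180 named genes, with 1 probe set per gene, and Runx2 levels are not analysed here. Sorted c-Kit+ leukemic spleen cells of Chd7f/f, Mx1-Cre, Cbfb+/56M mice (3 arrays, called Chd7f/f) were compared with those of Mx1-Cre, Cbfb+/56M mice (3 arrays, called control). Both genotypes carry Cbfb+/56M, a conditional allele of the fusion of Cbfb with MYH11, and Mx1-Cre, whose interferon-inducible promoter drives Cre in many cell types besides blood. Mice of both genotypes received the mutagen ENU and pIpC, which induces Cre, and cells were taken at end-stage leukemia. In Chd7f/f the gene of the chromatin remodeller Chd7 is floxed on both alleles in addition. No group without the fusion allele was analysed here, and the ages of the mice are not given in the labels used here. The labels call the 3 samples of a genotype independent without naming animals, so each p-value speaks only of the spread among these samples.

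Levels are RMA values in log2, in which 1 unit is a doubling, and differences are Chd7f/f minus control. Kit, the receptor used for the sort, was at 12.48, 11.69 and 11.90 on the Chd7f/f arrays and at 11.72, 12.12 and 11.68 on the control arrays. Chd7 was at 5.48, 6.5 and 5.91 in Chd7f/f and at 6.17, 7.54 and 5.32 in control leukemias, and the difference of -0.38 (SE 0.579) did not pass the test (limma, adjusted p = 0.9998). Where its probes lie relative to the floxed part is unknown here, and the level is no check of the deletion. Control replicate 1 stood apart on the first principal component, which held 33.7% of the variance, with a score of -55.0 where the other arrays lay between 3.35 and 25.1. An alternative fit used array weights, which lessen the part of more variable arrays. They were lowest for Chd7f/f replicate 1, at 0.418, and next for control replicate 1, at 0.609. Control replicate 2 alone had the female pattern of sex-linked genes, with Xist at 10.08 where the other arrays were at 3.88 or below, so it came from another animal than control replicates 1 and 3.

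None of the 7 measured genes passed the test between the genotypes. All 7 passed the filter on low values, 3 were higher and 4 lower in Chd7f/f, and differences ran from -0.22 for Cbfa2t2 to 0.67 for Runx1t1. Among all genes 0 of 15526 tested, or 0%, passed an adjusted p of 0.05 in limma, while 286 (1.84%) had an unadjusted p under 0.05. None of the 7 genes was among those 286. For each of the 7 the values of the genotypes overlapped, where 6.81% of all tested genes had no overlap, 2.45% with the Chd7f/f values above and 4.37% with them below. The plot of levels by array shows that the members differed more in how far leukemias of 1 genotype lay from each other than in their genotype means. Cbfb was the exception, since its control arrays, at 9.44 to 9.55, lay closer together than its means, which differed by 0.21.

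**Figure D1:**
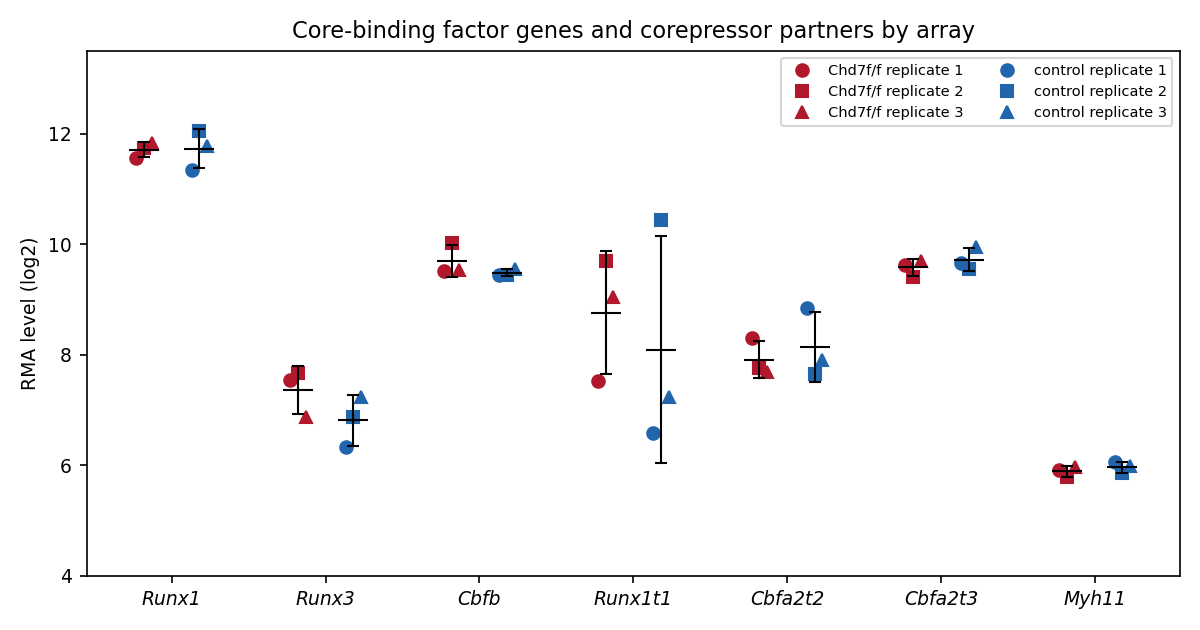
RMA level (log2) of the 7 measured genes on each array, Chd7f/f in red and control in blue, with a symbol per replicate number and the mean with its SD (n = 3) in black. Runx1t1 spans 3.83 log2 units over the 6 arrays, and Myh11 spans 0.26.

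Runx1, the RUNX protein of definitive hematopoiesis and the main partner of Cbfb in blood progenitors, was high on every array. It was at 11.56, 11.74 and 11.83 in Chd7f/f leukemias and at 11.35, 12.05 and 11.78 in control leukemias. The Chd7f/f arrays lay between the lowest array, control replicate 1, and the highest, control replicate 2. By mean level its probe set ranked 147 of 22180 named genes, and on single arrays between 99 and 235. Probes of different genes differ in response, so a rank places a probe set among the others and is not compared here as an amount of RNA. The difference was -0.02 (SE 0.202, 95% interval -0.51 to 0.47; limma, adjusted p = 0.9998). That interval corresponds to 0.703 to 1.39 times the control level, and the sign of the difference turned with median centring of the arrays and with array weights.

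Runx3, which directs cytotoxic T cell and natural killer cell programmes and is also expressed in myeloid cells, had the second largest difference of the 7 genes. Its level was 7.54, 7.67 and 6.87 in Chd7f/f leukemias, against 6.32, 6.88 and 7.23 in control leukemias. Chd7f/f replicates 1 and 2 were above every control array, and Chd7f/f replicate 3 lay below 2 of them. The difference was 0.55 (SE 0.308, 95% interval -0.20 to 1.29; limma, adjusted p = 0.9998, unadjusted p = 0.125). It was 0.79 without Chd7f/f replicate 3 and 0.30 without control replicate 1, and 0.16 with array weights.

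T and NK cell markers were low on all arrays. Of 13 such genes measured, 7 were above the filter and 1, the granule membrane gene Nkg7, lay over 1 log2 above the median level of named genes. The mean level of the 13 genes was 4.30 to 4.46 in Chd7f/f and 4.25 to 4.43 in control leukemias. The T cell receptor subunit gene Cd3g averaged 3.82 and the NK cell receptor gene Ncr1 3.75 over the 6 arrays, both under the filter. In sorted cells measured in bulk, fewer cells of a type and less RNA per cell cannot be told apart.

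The promoters of the RUNX genes are shown because these genes hold the binding motif of their own protein family at their distal start sites. The motif searched was TGTGGT and its reverse complement ACCACA, on both strands. Windows ran from 250 bases before to 50 bases after each start site listed for a gene (RefSeq, GRCm38.p6). Such a start need not be the outer end of the gene, and that of Runx2 lies inside it. Capitals mark the motif, and positions count from 1 at the listed start with no 0.

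Runx1, chr16:92826025-92826324, minus strand: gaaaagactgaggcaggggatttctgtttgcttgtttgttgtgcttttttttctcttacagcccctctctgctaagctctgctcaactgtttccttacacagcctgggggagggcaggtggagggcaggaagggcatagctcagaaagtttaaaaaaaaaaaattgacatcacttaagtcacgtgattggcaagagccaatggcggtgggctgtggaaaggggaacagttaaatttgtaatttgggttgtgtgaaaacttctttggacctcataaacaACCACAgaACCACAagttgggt
Runx2, chr17:44814578-44814877, minus strand: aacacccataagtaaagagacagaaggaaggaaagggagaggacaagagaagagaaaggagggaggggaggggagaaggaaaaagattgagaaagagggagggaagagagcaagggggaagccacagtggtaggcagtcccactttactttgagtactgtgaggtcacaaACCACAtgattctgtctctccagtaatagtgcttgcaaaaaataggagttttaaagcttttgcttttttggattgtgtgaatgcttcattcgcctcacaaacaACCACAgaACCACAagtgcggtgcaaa
Runx3, chr4:135120395-135120694, plus strand: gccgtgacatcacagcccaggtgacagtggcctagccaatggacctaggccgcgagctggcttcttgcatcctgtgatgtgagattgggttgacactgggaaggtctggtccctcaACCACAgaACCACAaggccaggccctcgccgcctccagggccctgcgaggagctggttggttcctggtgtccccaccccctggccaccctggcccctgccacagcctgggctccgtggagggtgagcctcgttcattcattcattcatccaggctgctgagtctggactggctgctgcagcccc

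In each of these windows the motif stood as a pair with 2 bases between the copies, starting at positions 29 and 37 in Runx1, 24 and 32 in Runx2 and -134 and -126 in Runx3. Runx2 had a further copy at -80. The longest stretch that the 3 windows shared was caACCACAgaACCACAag, 18 bases long. Of 32851 promoter windows in the table, 16.8% held the motif at least once, and 7 (0.0213%), these 3 among them, held the pair ACCACANNACCACA on either strand. The spacing searched was the one these 3 windows hold, so the count is a description and no test. The shared stretch was in 4 windows, the fourth being that of another gene and overlapping 1 of these 3 windows. The second windows of Runx1 (chr16:92697280-92697579) and Runx3 (chr4:135152295-135152594) held no copy, nor did those of Cbfb, Cbfa2t2 and Cbfa2t3. A match is a description of the sequence, and no binding was measured here.

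Differences between the genotypes are given for genes with and without the motif as a description, with no test. The median difference was -0.033 over the 1891 tested genes with the motif in a promoter window and -0.027 over the 10161 with a window and no motif. Of these genes 42.5% and 43.5% were higher in Chd7f/f leukemias.

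Cbfb, the common partner of all RUNX proteins and the gene altered by the fusion allele, was close to the same level on 5 of the 6 arrays. It was at 9.52, 10.02 and 9.53 in Chd7f/f leukemias and at 9.44, 9.44 and 9.55 in control leukemias. Chd7f/f replicate 2 was the only array above 9.55, and the SD was 0.287 in Chd7f/f against 0.0612 in control leukemias. The difference was 0.21 (SE 0.168, 95% interval -0.20 to 0.62; limma, adjusted p = 0.9998). Without Chd7f/f replicate 2 it was 0.046. Its probe set ranked 1694 by mean level and between 1218 and 2049 on single arrays.

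Myh11, the fusion partner in the human disease and otherwise a contractile protein gene of smooth muscle, was the least variable of the 7. It was at 5.91, 5.78 and 5.97 in Chd7f/f and at 6.05, 5.85 and 5.98 in control leukemias. Only 9.02% of tested genes had a smaller SD over the 6 arrays. Its probe set ranked 9014 of 22180 named genes by mean level, and without detection calls it is unknown whether that level lies above background. The difference was -0.07 (SE 0.118, 95% interval -0.36 to 0.21; limma, adjusted p = 0.9998), and -0.018 without Chd7f/f replicate 2. Probe positions are unknown here, so neither the Cbfb nor the Myh11 level separates transcripts of the fusion allele from those of the normal genes.

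Genes that accompany Myh11 in smooth muscle were low in both genotypes. The 12 smooth muscle genes had a mean level of 4.91 to 5.08 in Chd7f/f and 4.99 to 5.17 in control leukemias, where the median level of named genes was 5.10. Among them 2, the actin gene Acta2 at 6.49 and the myosin light chain gene Myl9 at 6.62, lay over 1 log2 above that median. The calponin gene Cnn1 was lowest, at 4.14, beside the filter level of 4.13. Nonmuscle myosin heavy chain genes were measured for comparison. Myh9 was at 9.91 to 10.46 in Chd7f/f and 10.17 to 10.53 in control leukemias. Myh10, which RUNX1 represses in maturing megakaryocytes, was at 6.13, 7.63 and 5.55 in Chd7f/f against 5.62, 6.89 and 4.85 in control leukemias. Its difference of 0.65 (SE 0.695) lay within the spread of either genotype (limma, adjusted p = 0.9998).

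**Figure D2:**
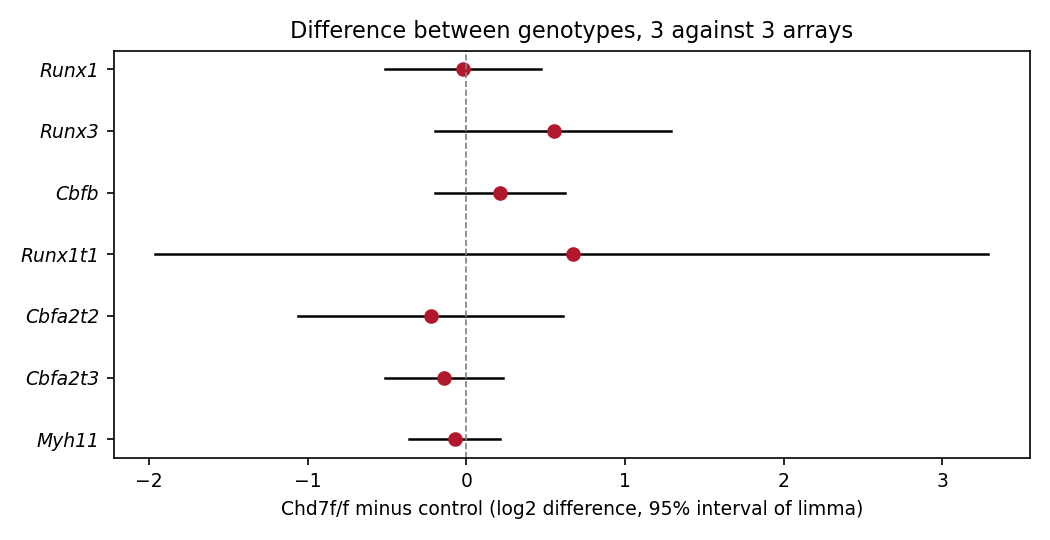
Difference in RMA level, Chd7f/f minus control (log2), for the 7 measured genes, with limma's 95% interval from 3 against 3 arrays. Every interval includes 0, and the widest, that of Runx1t1, runs from -1.96 to 3.29.

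Runx1t1, the ETO corepressor that is fused to RUNX1 in leukemia, varied most among leukemias. It was at 7.53, 9.69 and 9.04 in Chd7f/f leukemias and at 6.59, 10.43 and 7.24 in control leukemias. Both genotypes held leukemias with high and with low levels, and control replicates 1 and 2 were the lowest and highest arrays of all. Its SD over the 6 arrays exceeded that of 99.3% of tested genes, and its rank moved between 767 in control replicate 2 and 7743 in control replicate 1. The difference was 0.67 (SE 1.08, 95% interval -1.96 to 3.29; limma, adjusted p = 0.9998). The value turned on the control arrays, being 1.84 without control replicate 2 (unadjusted p = 0.0389, adjusted p = 0.989, limma) and -0.080 without control replicate 1.

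Cbfa2t2, an ETO family member expressed in many tissues, was at 8.30, 7.76 and 7.69 in Chd7f/f and at 8.85, 7.65 and 7.91 in control leukemias. Control replicate 1 was highest, followed by Chd7f/f replicate 1, and the other 4 arrays lay within 7.65 to 7.91. The difference of -0.22 (SE 0.345, 95% interval -1.06 to 0.61; limma, adjusted p = 0.9998) turned to 0.13 without control replicate 1.

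Cbfa2t3, the ETO family member that works with Tal1, Gata1 and Ldb1 in erythroid and megakaryocytic progenitors, stayed within 0.54 log2 units. It was at 9.63, 9.41 and 9.69 in Chd7f/f and at 9.66, 9.55 and 9.95 in control leukemias. The difference was -0.14 (SE 0.154, 95% interval -0.51 to 0.23; limma, adjusted p = 0.9998), and -0.026 without control replicate 3.

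Among the 6 leukemias Cbfa2t2 tended to be lower where Runx1 was higher. Pearson's r was -0.93 (exact permutation p = 0.00417) and Spearman's rho was -0.94 (exact permutation p = 0.0167). Adjusted over the 21 pairs of measured genes, p was 0.0876 for r and 0.233 for rho, so the relation did not pass the correction. Without the 2 arrays farthest from the median of Runx1, control replicates 1 and 2, r was -0.94 over the other 4. Runx1t1 ran with Runx1 (r = 0.83, exact permutation p = 0.0375, adjusted 0.263; rho = 0.71, exact permutation p = 0.136, adjusted 0.476), and r was 0.41 without the same 2 arrays. Between Runx1t1 and Cbfa2t2 r was -0.82 (exact permutation p = 0.0319, adjusted 0.263) and rho -0.89 (exact permutation p = 0.0333, adjusted 0.233). Between Runx1t1 and Myh11 r was -0.79 (exact permutation p = 0.0722, adjusted 0.379) and rho -0.89 (exact permutation p = 0.0333, adjusted 0.233). No pair passed the correction. Runx1 and Cbfb, the subunits of the factor, had an r of 0.07 (exact permutation p = 0.872, adjusted 0.916) and a rho of -0.09 (exact permutation p = 0.919, adjusted 1.0), and r was 0.13 without the 2 farthest arrays.

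**Figure D3:**
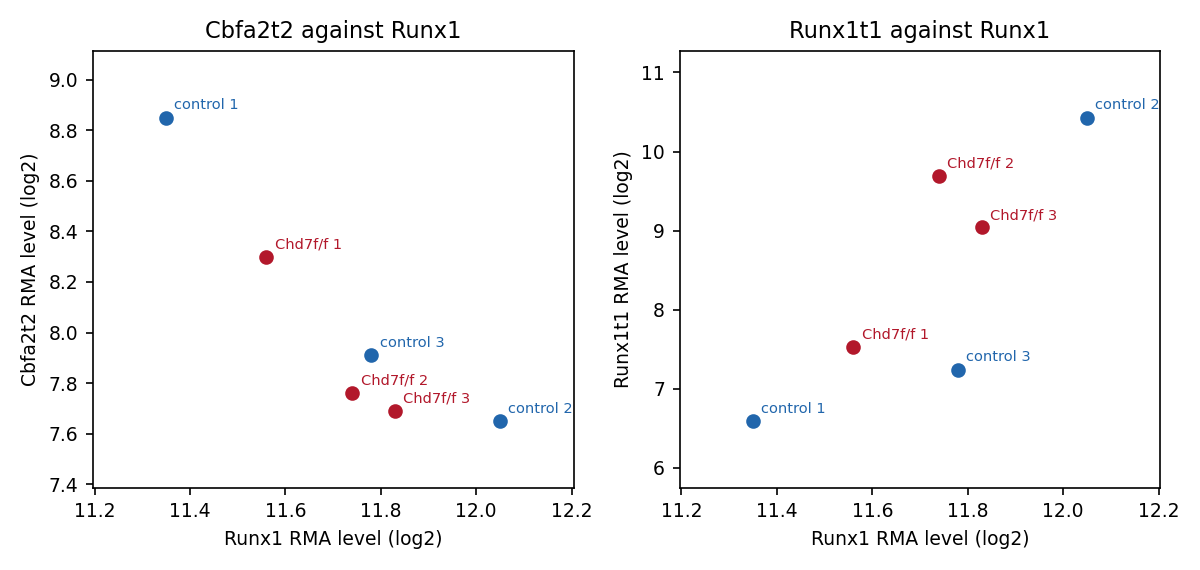
RMA level (log2) of Cbfa2t2 (left) and Runx1t1 (right) against that of Runx1, 1 point per array, Chd7f/f in red and control in blue. Control replicates 1 and 2 are the extremes of Runx1 at 11.35 and 12.05, and the Chd7f/f arrays lie between them.

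Cell type markers also differed between the arrays, and their part in the levels above was not tested. Of 8 erythroid genes listed 4 were measured, and all 4 were over 1 log2 above the median of named genes. Their mean level was 8.43 to 9.90 in Chd7f/f and 8.88 to 10.49 in control leukemias, the highest in control replicate 1 and the lowest in Chd7f/f replicate 1. The anion exchanger gene Slc4a1, a marker of maturing red cells, was at 11.47 in control replicate 1 and at most 9.14 elsewhere. Without it the mean of the other 3 was 10.17 in control replicate 1 and 10.35, the highest, in control replicate 3. Of 7 mast cell and basophil genes measured, 5 were over 1 log2 above the median, with a mean level of 9.34 to 9.51 in Chd7f/f and 8.48 to 9.41 in control leukemias. The lowest array was control replicate 1, where the histidine decarboxylase gene Hdc was at 9.86 against at least 11.25 elsewhere. The protease genes Mcpt8 and Prss34 of that list were low, at 4.43 and 3.94 on average, with Prss34 under the filter. Mcpt8 was at 4.52 in control replicate 1 and lowest, at 3.90, in control replicate 2. The carboxypeptidase gene Cpa3, known from mast cells, basophils and their progenitors, was at 12.92 to 13.09 on every array. Among megakaryocyte genes Gp9 was at 10.81 in control replicate 1 and at most 7.71 elsewhere, while Itga2b was lowest there, at 9.05. In control replicate 2 the erythroid mean was 8.88 and the mast cell and basophil mean 9.41, both within the range of the other arrays. The B cell gene Cd79a was at 7.18 there and at most 5.26 elsewhere, while Cd79b was highest, at 5.15, in control replicate 1. The mean of the 3 progenitor genes Kit, Cd34 and Myb was highest in Chd7f/f replicate 1, at 10.92. Cd34 was at 9.47 on that array and at most 7.64 elsewhere.

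The genes most like the 3 members that spanned at least 1 log2 unit were taken by the highest Pearson r over the 6 arrays, among 4425 tested genes with an SD of at least 0.3. They are given as a description, and many genes were nearly as alike, since 57 genes (1.29%) had an r over 0.9 with Runx1t1, 37 (0.836%) with Runx3 and 103 (2.33%) with Cbfa2t2. For Runx1t1 they were Unc13b, a vesicle priming gene (r = 0.993, rho = 1.0), the TREM-like receptor gene Treml2 (r = 0.984, rho = 0.943) and the FERM domain gene Frmd4b (r = 0.979, rho = 1.0). Unc13b was at 6.62, 7.77 and 7.20 in Chd7f/f and at 6.18, 8.0 and 6.38 in control leukemias. For Runx3 they were the p38 pathway kinase gene Map2k6 (r = 0.974), the deubiquitinase gene Usp12 (r = 0.973) and the oxygen-sensing prolyl hydroxylase gene Egln1 (r = 0.971). Map2k6 was at 6.39, 6.73 and 5.87 in Chd7f/f and at 4.92, 5.90 and 6.27 in control leukemias. For Cbfa2t2 they were the p300 cofactor gene Jmy (r = 0.990), Tapt1 (r = 0.986) and the jumonji gene Jmjd1c (r = 0.986). Control replicate 1 and Chd7f/f replicate 1 were the arrays farthest from the median of Cbfa2t2. Without them r was 0.84 for Jmy, 0.96 for Tapt1 and 0.73 for Jmjd1c. Without the 2 farthest arrays likewise, r was 0.91 to 0.98 for the Runx3 genes and 0.95 to 0.99 for the Runx1t1 genes.

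**Figure D4:**
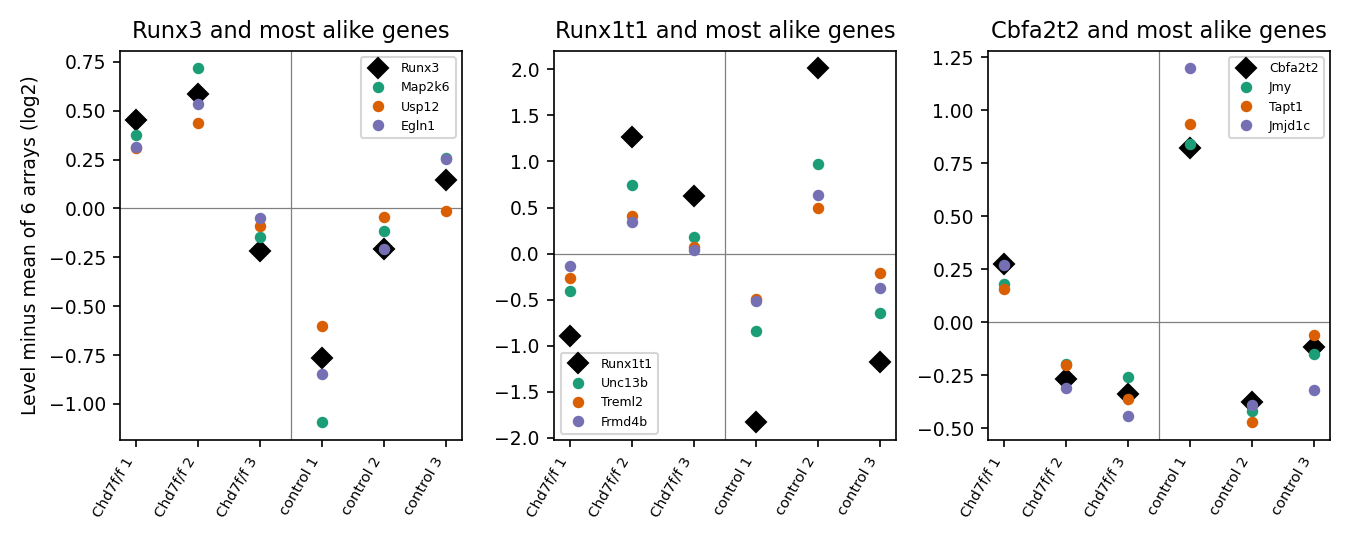
Level on each array minus the mean of the 6 arrays (log2) for Runx3, Runx1t1 and Cbfa2t2 (black diamonds) and the 3 genes most like each (coloured points), Chd7f/f arrays left of the grey line and control arrays right. Control replicate 1 is the lowest array of Runx3 and Runx1t1 and the highest of Cbfa2t2, and control replicate 2 the highest of Runx1t1.

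Genes that work with core-binding factor also gave no call between the genotypes. Of 16 transcription factor genes whose proteins bind DNA with or beside it, all 16 were tested, 10 were higher and 6 lower, and 0 passed an adjusted p of 0.05 (limma; 0 also had an unadjusted p under 0.05). Their median difference was 0.07, against -0.027 over all tested genes, of which 43.7% were higher. The split of all genes turned with scaling, from 6785 higher and 8741 lower to 8579 and 6947 under median centring, where their median was 0.022. Erg, an ETS factor of stem cells and megakaryocytes, was at 8.93, 9.65 and 8.80 in Chd7f/f and at 6.31, 9.05 and 8.64 in control leukemias, and control replicate 1 was the only array below 8.64. Its difference was 1.13 (SE 0.722). Ldb1, the bridging protein of the Tal1 complex, differed by 0.18 (SE 0.141), and Cebpa, the granulocytic master factor, by 0.25 (SE 0.142) at a low mean level of 4.53. The SD of Erg over the 6 arrays exceeded that of 98.3% of tested genes.

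Of 14 corepressor complex genes 12 were measured and tested, 6 higher and 6 lower, with a median difference of -0.03. None passed an adjusted or unadjusted p of 0.05 (limma). The deacetylase genes Hdac1, Hdac2 and Hdac8, of which Hdac8 encodes a protein that binds the fusion protein, differed by -0.34 (SE 0.281), -0.36 (SE 0.298) and -0.17 (SE 0.159). Hdac1 was at 9.50, 10.58 and 10.14 in Chd7f/f and at 10.53, 10.24 and 10.49 in control leukemias, with Chd7f/f replicate 1 lowest.

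Of 10 genes for coactivators and enzymes that modify RUNX proteins, 9 were tested, 2 higher and 7 lower, with a median of -0.02. That balance turned with scaling, to 6 higher and 3 lower under median centring and 5 and 4 under a further quantile normalization. The acetyltransferase gene Kat6b was the only gene of the 5 lists with an unadjusted p under 0.05, a level that 1.84% of all tested genes reached. It was at 8.98, 8.36 and 8.19 in Chd7f/f and at 7.56, 8.20 and 7.57 in control leukemias. The genotypes overlapped by the narrow gap between Chd7f/f replicate 3 and control replicate 2, and the difference was 0.74 (SE 0.274, 95% interval 0.07 to 1.40; limma, unadjusted p = 0.0351, adjusted p = 0.9998). Its relative Kat6a, a partner of RUNX1, differed by -0.01, and the methyltransferase genes Kmt2a and Prmt6 by -0.16 and -0.14.

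Of 17 genes with control regions bound by RUNX proteins in blood cells, 16 were measured and 13 tested, since Il3, Pf4 and Alox12 lay under the filter. Among those tested 8 had a higher and 5 a lower Chd7f/f mean, with a median of 0.05, and 0 passed an adjusted or unadjusted p of 0.05 (limma). Csf1r, the macrophage colony-stimulating factor receptor gene, was at 7.23, 6.71 and 8.19 in Chd7f/f and at 6.66, 7.09 and 6.04 in control leukemias, a difference of 0.78 (SE 0.436). The monocyte and macrophage genes, of which Csf1r is 1 of 8, had a mean level of 5.99 to 7.05 in Chd7f/f and 5.55 to 6.39 in control leukemias; 4 of the 8 were over 1 log2 above the median of named genes, and their part in the Csf1r level was not tested. Mpo, the myeloperoxidase gene of promyelocytes, was at 8.69, 7.11 and 7.81 in Chd7f/f and at 8.59, 6.91 and 6.13 in control leukemias, a difference of 0.66 (SE 0.696). Cdkn2a, a tumour suppressor gene, differed by -0.25 (SE 0.198).

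**Figure D5:**
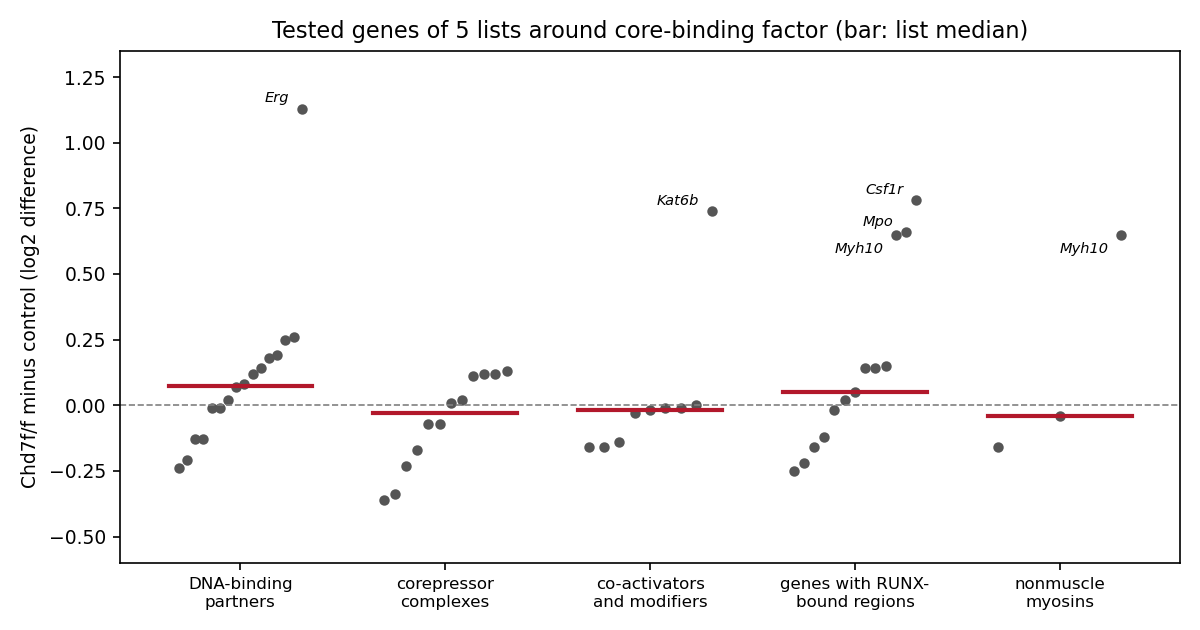
Difference in RMA level, Chd7f/f minus control (log2), of each tested gene in 5 lists around core-binding factor, with the list median as a red bar and genes at or beyond 0.6 named. List medians lie between -0.04 and 0.07, and Erg, Csf1r, Kat6b, Mpo and Myh10 are the highest points.

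With 3 arrays a genotype the smallest p of an exact permutation test, two-sided, is 0.1, and for the 7 measured genes it gave 0.3 for Runx3 and Cbfb, 0.4 for Myh11, 0.5 for Cbfa2t3, 0.7 for Runx1t1 and Cbfa2t2 and 0.9 for Runx1. The number of arrays limits the precision, and the intervals above bound each difference more closely for Myh11, Cbfa2t3 and Cbfb than for Runx3, Cbfa2t2 and Runx1t1. For Myh11 this holds for the RMA level, which may lie near background.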

How the data were processed

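The authors deposited log2 values, 1 per probe set and array, for 6 samples; Affymetrix Expression Console and RMA are named per the submitters' processing notes, without versions or settings. RMA equalises the distributions of arrays, so differences in total signal are not visible, and without detection calls low levels may lie near background. The mouse Gene 2.0 ST array is named by the series design, a human one by the labelling protocol, and the probe sets carry mouse genes. Of 41345 probe sets 23521 had 1 gene symbol, 1814 several and 16010 none listed. Symbols were updated by Entrez identifier through RefSeq (GRCm38.p6), which held 21994 of 22180 named genes. The probe set with the highest mean was kept per gene, and 15526 genes whose mean reached the 30th percentile, 4.13, were tested.

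The genotype fit used limma 3.58.1 (R 4.3.3; lmFit and eBayes with a constant prior and genotype as its single term), and p-values were adjusted over all tested genes by Benjamini-Hochberg. No test was made over a list. The fit was tested on 5 simulated data sets, with variances drawn from its prior. Of genes given a log2 change of 1 it recovered 37%, and of those given 2 it recovered 83%. False calls over all 5 sets numbered 41. Named were all members, Chd7, Kit, the 3 genes of each list with the smallest p, and the 3 genes most correlated with each member spanning at least 1 log2 unit; other genes were named after their values were seen, as were the cell type markers described. The members and lists were chosen with earlier results of these data known. Promoter sequences are RefSeq's, held for 6 of the 8 genes. Alternatives were other filters, normalizations, priors, array weights, the mean of probe sets, the replicate number as a block, and leaving out arrays. Same-numbered arrays did not deviate together (correlations 0.0272, -0.0246 and 0.0336).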

Additional observations from a re-analysis of the deposited data

How the results depend on the processing

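No member passed an adjusted p of 0.05 under any of the 15 alternatives, and 0 genes did over the whole table. With other filters, another prior, the mean of probe sets or the replicate block, the difference of a member cannot change. These settings therefore say nothing of its sign. Under the normalizations, the array weights and the leaving out of arrays, the differences of Runx3, Cbfb, Cbfa2t3 and Myh11 kept their sign. Without single arrays Cbfa2t3 ran from -0.225 to -0.026 and Myh11 from -0.127 to -0.018. The Myh11 difference was -0.003 after a further quantile normalization. That of Runx1, -0.017, turned to 0.032 with median centring and 0.005 with array weights, and ran from -0.207 to 0.146 when single arrays were left out. That of Runx1t1 ran from -0.080 without control replicate 1 to 1.836 without control replicate 2, and that of Cbfa2t2 from -0.469 to 0.133. The median of the coactivator list was -0.114 with array weights and that of the partner list -0.006 to 0.127 without single arrays. Genes with an unadjusted limma p under 0.05 and a fold of 1.5 numbered 121, with 54 higher, and 129 with 71 higher under median centring, 186 with array weights, and 128 to 283 without single arrays, the highest without control replicate 2. With the replicate number as a block it was 171, and the block changed no call. None of the 7 measured members had a second single-gene probe set, so taking each probe set on its own could not be run for them. Levels near the filter may lie near background.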
